A study of Mus musculus with 9 samples.

Results

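The segments described here are the V segments of the immunoglobulin heavy chain locus (Ighv). They were taken as every entry of the expression table whose gene symbol begins with Ighv, which gave 113 of 37801 entries in 16 families. Expression was measured by RNA-seq in 3 groups with 3 libraries each. The paper gives the tissue as lymph node, whereas the sample labels name nevus melanocytes as the source. The groups were WT mice without the transgene (strain FVB/NJ, wtNRAS, wtMHCII), Tyr-NrasQ61K mice (NRAS61K, wtMHCII, Cre-negative) and Tyr-NrasQ61K MHCII-KO mice (NRAS61K, Cre-positive), hereafter MHCII-KO as labelled. In the last 2 groups activated NRAS is driven by the tyrosinase promoter, which is active in melanocytes. The strain label of both transgenic groups is FVB/NJ (Cross), so the transgene and the strain label cannot be told apart in any comparison with WT, although the protocol notes describe the wild-type controls as littermates. The labels do not name the Cre line or the deleted class II gene, give no ages, and do not state that the libraries came from separate animals. The p-values therefore measure only the spread between these libraries, which may be technical.

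A B cell builds its heavy chain gene by joining a V segment to a D and a J segment, and each cell normally expresses a single such rearrangement. The V segment encodes most of the antigen-binding variable domain, including the first and second complementarity-determining regions. V segments are grouped into families by sequence similarity, and the large Ighv1 family, also called J558, is a frequent source of mouse antibodies. Plasma cells hold far more heavy chain RNA per cell than resting B cells, so bulk RNA weighs a few plasma cell clones heavily. In bulk tissue, fewer cells of a type and less RNA per cell cannot be told apart, and the joins themselves, and hence clones, are not seen.

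All 113 segments lie on the minus strand of chromosome 12, between 113574245 and 116000461 in mm10 as annotated by GENCODE M21, where 103 are typed as V genes and 10 as V pseudogenes. Positions and sequences were matched by symbol, because only 25 of the deposited identifiers occur in that annotation, and 4 of those carry another symbol there. Positions, gene or pseudogene types, sequences and identities are thus those of the mm10 reference. Whether the mice, labelled FVB/NJ or FVB/NJ (Cross), carry the same segments was not tested. The sequences below are windows of 150 bases from the V exon of the reference transcript, printed 5′ to 3′ on the coding strand. Capitals mark bases that differ from the first sequence of each set. The first set shows Ighv1-26 (chr12:114788490-114788639), the segment whose share of the summed Ighv FPKM separated the groups most clearly. Beside it are Ighv1-18 (chr12:114682750-114682899), Ighv1-34 (chr12:114851308-114851457) and Ighv1-39 (chr12:114914717-114914866). Over the whole V exon these are 97.4%, 96.4% and 92.5% identical to Ighv1-26.
Ighv1-26: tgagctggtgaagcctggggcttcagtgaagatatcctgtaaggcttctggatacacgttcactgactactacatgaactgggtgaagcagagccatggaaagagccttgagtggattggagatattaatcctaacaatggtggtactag
Ighv1-18: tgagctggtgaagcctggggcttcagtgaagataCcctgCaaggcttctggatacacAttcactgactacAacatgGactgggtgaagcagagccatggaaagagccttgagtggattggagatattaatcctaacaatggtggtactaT
Ighv1-34: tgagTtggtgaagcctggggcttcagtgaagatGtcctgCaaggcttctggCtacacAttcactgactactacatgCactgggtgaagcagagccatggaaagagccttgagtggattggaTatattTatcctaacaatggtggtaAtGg
Ighv1-39: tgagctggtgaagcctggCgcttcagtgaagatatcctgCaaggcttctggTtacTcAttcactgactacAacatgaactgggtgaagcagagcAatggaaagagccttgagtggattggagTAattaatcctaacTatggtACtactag

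The second set shows Ighv5-9-1 (chr12:113736180-113736329), which was high in 3 of the 6 transgenic libraries, and Ighv5-6 (chr12:113625575-113625724), which is 94.5% identical to it.
Ighv5-9-1: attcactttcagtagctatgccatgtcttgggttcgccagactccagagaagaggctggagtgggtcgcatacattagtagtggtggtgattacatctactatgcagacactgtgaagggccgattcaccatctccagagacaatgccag
Ighv5-6: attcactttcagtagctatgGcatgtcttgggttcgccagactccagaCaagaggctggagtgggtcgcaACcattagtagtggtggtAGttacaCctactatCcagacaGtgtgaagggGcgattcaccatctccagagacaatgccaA

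The third set shows Ighv1-59 (chr12:115335190-115335339), the leading segment of MHCII-KO replicate 3, with Ighv1-69 (chr12:115623269-115623418), 97.4% identical, and Ighv1-77 (chr12:115861975-115862124), which is 87.5% identical and was the second segment of that library.
Ighv1-59: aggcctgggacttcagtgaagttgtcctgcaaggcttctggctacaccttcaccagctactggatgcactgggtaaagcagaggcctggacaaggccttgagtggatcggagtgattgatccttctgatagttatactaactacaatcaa
Ighv1-69: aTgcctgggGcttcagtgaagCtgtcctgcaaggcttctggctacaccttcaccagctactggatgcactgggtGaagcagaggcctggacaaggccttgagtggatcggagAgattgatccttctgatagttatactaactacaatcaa
Ighv1-77: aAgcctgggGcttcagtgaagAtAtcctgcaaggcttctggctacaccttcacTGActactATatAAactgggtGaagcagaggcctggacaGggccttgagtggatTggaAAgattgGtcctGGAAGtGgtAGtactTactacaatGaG

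The last set shows the Ighv11 family, Ighv11-1 (chr12:113982036-113982185) and Ighv11-2 (chr12:114048398-114048547), which are 98.7% identical. This family is known from B-1 cell antibodies that bind phosphatidylcholine.
Ighv11-1: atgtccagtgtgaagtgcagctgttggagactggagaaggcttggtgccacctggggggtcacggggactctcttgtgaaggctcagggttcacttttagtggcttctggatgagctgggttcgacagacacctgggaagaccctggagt
Ighv11-2: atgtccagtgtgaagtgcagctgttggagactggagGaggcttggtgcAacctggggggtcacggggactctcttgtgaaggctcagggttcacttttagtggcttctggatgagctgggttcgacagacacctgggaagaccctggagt

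All values are FPKM, fragments scaled to transcript length and library size, and how the authors' software divided reads between near-identical segments is not given in the sources used here. The value of a segment with a close copy is therefore uncertain. B cell markers were present in every library, with the FPKM of Ms4a1, the B cell surface gene for CD20, between 24.6 and 136.0. The class II gene H2-Ab1 was not lower in the MHCII-KO libraries (270.9, 108.2 and 164.6 FPKM) than in WT (183.2, 100.7 and 170.1 FPKM), whereas H2-Aa was lower in them without overlap (634.1, 362.4 and 498.6 FPKM, against 1091, 667.4 and 932.4 in WT). H2-Aa was at 587.4, 275.6 and 801.6 FPKM in Tyr-NrasQ61K libraries. H2-Eb1 overlapped between MHCII-KO (443.9, 360.0 and 386.8 FPKM) and WT libraries (659.1, 394.1 and 586.1 FPKM). Neither these genes nor Cd74 passed the test by limma, and since the deleted gene is not named they do not check the labels. Replicate 2 of both transgenic groups lay away from all other libraries on the first principal component and had the lowest relative depths of the 8 libraries in which depth could be estimated. Tyr-NrasQ61K replicate 3 lay away from the others on the second component. The FPKM of 4 adipocyte markers summed to between 40.5 and 77.6 in WT, but only to between 4.92 and 17.4 in Tyr-NrasQ61K and between 7.14 and 18.9 in MHCII-KO libraries. Its part in the results below was not tested. No marker of that list was at 0 in every library.

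The summed Ighv FPKM varied more between libraries of a group than between groups. It was 34855, 5797 and 9436 in the WT libraries, 21668, 3866 and 13654 in the Tyr-NrasQ61K libraries, and 18169, 9397 and 30495 in the MHCII-KO libraries. The group means were 16696 ± 15831 (SD, n = 3), 13063 ± 8915 and 19354 ± 10599, so the groups overlapped throughout. The WT mean rested on replicate 1 and was 7617 without it. The Tyr-NrasQ61K mean rose to 17661 without replicate 2. Breadth hardly varied, as 103 to 107 of the 113 segments reached 1 FPKM in each library, and 2 segments were listed at 0 in all 9. The summed FPKM of 11 plasma cell genes, 9 of them in the table and including the secretory regulator Xbp1 and the J chain gene Igj, was lowest in Tyr-NrasQ61K replicate 2 (236.6) and WT replicate 2 (262.8), the libraries with the smallest Ighv sums. It was highest in MHCII-KO replicate 3 (773.6) and WT replicate 1 (694.3), the libraries with the largest Ighv sums. The summed FPKM of 12 B cell genes was also lowest in Tyr-NrasQ61K replicate 2 (428.2), but was 473.2 in MHCII-KO replicate 3, 772.2 in WT replicate 1 and 793.2 in Tyr-NrasQ61K replicate 3.

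Ighv1-62-1, of the Ighv1 family, was the most used segment in 7 of the 9 libraries. Its share of the summed Ighv FPKM was 51.4%, 10.3% and 24.3% in WT, 33.6%, 45.7% and 20.2% in Tyr-NrasQ61K, and 51.7%, 41.3% and 10.01% in MHCII-KO libraries. The shares of the 3 groups overlapped. Ighv1-62-1 is also the only segment for which the reference annotation holds a model under 200 bases, of 90 bases beside one of 349, and FPKM rises as the assumed length falls. Which model lies behind the deposited values is not given in the sources used here, so usage is also described without this segment.

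**Figure D1:**
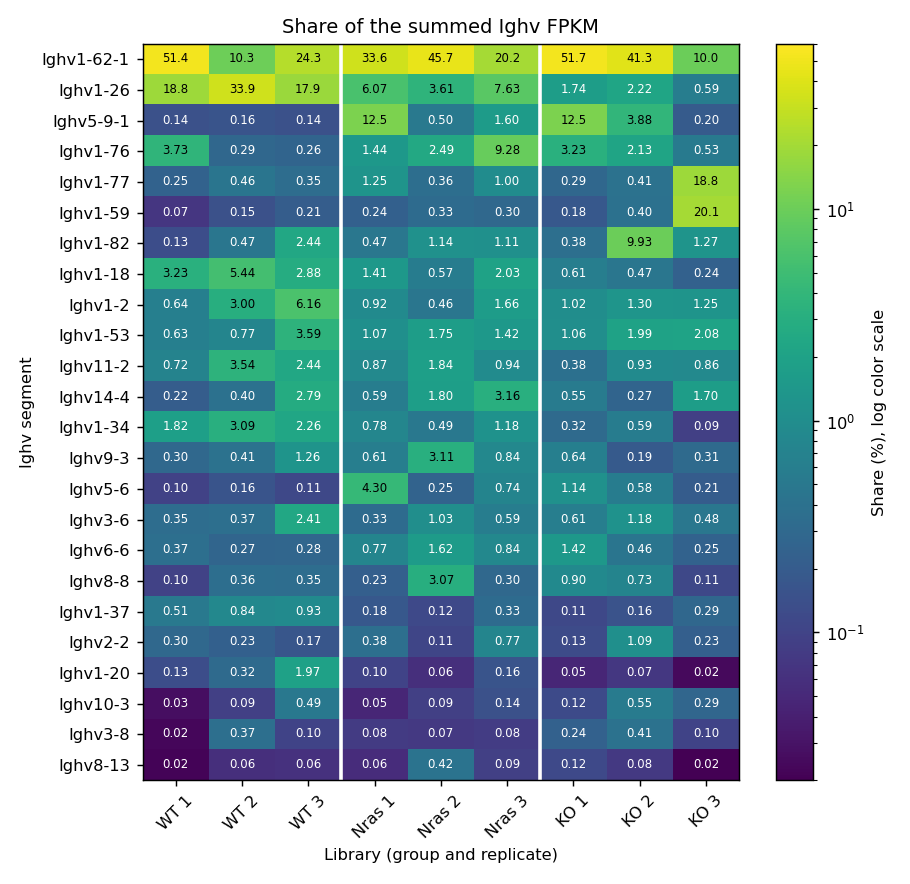
Share of the summed Ighv FPKM (%, log color scale, with the value printed in each cell) of the 24 named segments (rows, by mean share) in each library (columns; Nras stands for Tyr-NrasQ61K and KO for MHCII-KO). Ighv1-62-1 leads 7 of 9 libraries, Ighv1-26 lies between 17.9% and 33.9% in WT and at 7.63% or less elsewhere, and Ighv1-77 and Ighv1-59 stand out in MHCII-KO replicate 3 alone.

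The remaining leading segments differed from library to library. Ighv1-76 held 9.28% in Tyr-NrasQ61K replicate 3 and 3.73% in WT replicate 1, and between 0.260% and 3.23% in the others. Ighv1-82 held 9.93% in MHCII-KO replicate 2 and 2.44% or less elsewhere. Ighv1-47, which was noticed after its values were seen, held 5.49% in Tyr-NrasQ61K replicate 1 and 0.165% or less in every other library. Ighv1-2 and Ighv3-2, both typed as pseudogenes in the reference, reached 6.16% in WT replicate 3 and 4.76% in WT replicate 2. The 10 pseudogenes together held 2.498%, 10.2% and 7.998% in WT, 2.38%, 1.24% and 4.96% in Tyr-NrasQ61K, and 1.87%, 3.08% and 3.35% in MHCII-KO libraries. Segments with single-library peaks were thus found in all 3 groups. Ighv1-53 was spread more evenly, between 0.626% and 3.59%. Among segments of the smaller families, Ighv14-4 held 0.215% to 3.16%, Ighv9-3 0.191% to 3.11%, Ighv6-6 0.248% to 1.62% and Ighv2-2 0.108% to 1.09% over the 9 libraries. Ighv3-5, which was also noticed after its values were seen, held 6.03% in WT replicate 2 and 0.130% or less elsewhere.

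Evenness was expressed as the effective number of segments, the number of equally used segments that would give the same Shannon entropy. It was 8.67, 19.9 and 24.2 in WT, 20.8, 17.8 and 40.5 in Tyr-NrasQ61K, and 11.3, 18.9 and 23.8 in MHCII-KO libraries. The group means of 17.6 ± 8.003, 26.4 ± 12.3 and 18.0 ± 6.30 (SD, n = 3) overlapped. The Tyr-NrasQ61K mean was 19.3 without replicate 3. Without Ighv1-62-1 the values were 20.5, 19.4 and 32.3 in WT, 37.0, 56.3 and 54.9 in Tyr-NrasQ61K, and 36.3, 47.0 and 23.6 in MHCII-KO libraries. The Tyr-NrasQ61K libraries then all lay above the WT libraries, whereas those of MHCII-KO overlapped both. The 10 most used segments held 83.6%, 73.6% and 68.2% in WT, 70.7%, 66.8% and 52.9% in Tyr-NrasQ61K, and 76.5%, 68.0% and 68.9% in MHCII-KO libraries. Without Ighv1-62-1, this share lay between 60.9% and 72.4% in WT and between 41.7% and 57.7% in Tyr-NrasQ61K libraries, again without overlap. In MHCII-KO libraries it was 47.7% to 67.3%. The T cell receptor V segments were more even than Ighv in the same RNA. On a scale where 1 is perfectly even, evenness ranged from 0.457 to 0.783 for Ighv, from 0.560 to 0.821 for the kappa light chain segments (Igkv), and from 0.854 to 0.920 for Trbv and 0.825 to 0.950 for Trav. Without Ighv1-62-1 the Ighv range was 0.628 to 0.854 and overlapped those of Trbv and Trav. In Tyr-NrasQ61K replicate 2, Ighv was then at 0.854, against 0.854 for Trbv and 0.825 for Trav.

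**Figure D2:**
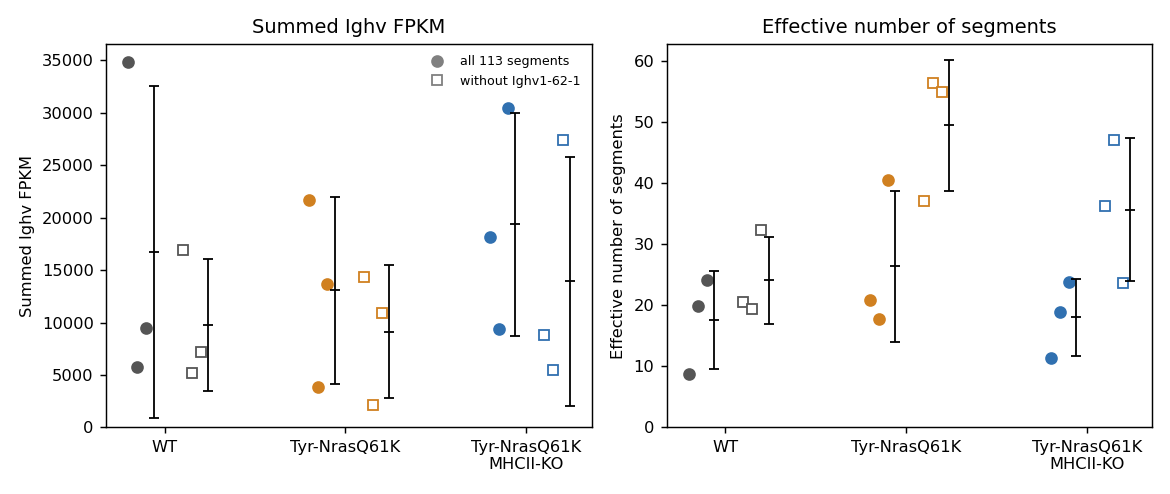
Summed Ighv FPKM (left) and effective number of segments (right) for each library, with all 113 segments (filled circles) and without Ighv1-62-1 (open squares); black bars show the mean and SD of the 3 libraries of each group. The sums overlap between all groups, and the effective number separates Tyr-NrasQ61K from WT only once Ighv1-62-1 is left out.

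Ighv1-26 showed the clearest order of the groups in shares. Its FPKM was 6537, 1968 and 1692 in WT, 1315, 139.7 and 1042 in Tyr-NrasQ61K, and 315.3, 208.4 and 180.3 in MHCII-KO libraries. In FPKM only WT stood apart, as Tyr-NrasQ61K replicate 2 lay below every MHCII-KO library. Its share was 18.8%, 33.9% and 17.9% in WT, 6.07%, 3.61% and 7.63% in Tyr-NrasQ61K, and 1.74%, 2.22% and 0.591% in MHCII-KO libraries, so that no group overlapped another. Its rank among the segments was 2, 1 and 2 in the WT libraries, 3, 2 and 3 in the Tyr-NrasQ61K libraries, and 4, 5 and 28 in the MHCII-KO libraries. The mean share in WT was 4.08-fold that in Tyr-NrasQ61K and 15.5-fold that in MHCII-KO libraries. Fitted by limma on log2(FPKM + 1) over all 16587 genes tested, a scale that understates changes of low genes, the difference was -2.27 ± 0.89 (SE; adjusted p = 0.317) for Tyr-NrasQ61K against WT. It was -3.61 ± 0.89 (adjusted p = 0.251) for MHCII-KO against WT and -1.34 ± 0.89 (adjusted p = 0.99994) for MHCII-KO against Tyr-NrasQ61K. In this fit none passed the threshold of 0.05. The first 2 comparisons share the WT libraries. With each library scaled to the same summed Ighv FPKM, an alternative chosen after seeing the data, the limma difference between MHCII-KO and WT was -4.09 with an adjusted p of 0.0467. Across all alternatives that adjusted p ranged from 0.0038 to 0.728. They include a fit with the replicate number as a block, in which Ighv1-26 was called lower in MHCII-KO than in WT. The main fit did not use the replicate numbers, and whether they pair the libraries is not settled, as described below. Leaving out Tyr-NrasQ61K replicate 2 reduced the difference from WT to -1.25.

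The segments most similar in sequence to Ighv1-26 varied with it over the libraries. Of the other segments, 13 have a V exon at least 90% identical to that of Ighv1-26, and all 13 passed the filter on low values. On the log2 scale, 12 of the 13 were lower in Tyr-NrasQ61K than in WT libraries (median -1.49) and 11 of the 13 were lower in MHCII-KO than in WT (median -1.56). In contrast, 77 of all 108 tested segments were above 0 in each of these comparisons, with medians of 0.38 and 0.71, and the medians of all genes tested were -0.12 and -0.22. Between MHCII-KO and Tyr-NrasQ61K, 6 were lower and 7 higher. None of the 13 passed the test. The 5 segments that are at least 95% identical, Ighv1-18, Ighv1-19, Ighv1-22, Ighv1-33 and Ighv1-34, differed by -1.87 to -1.48 and by -2.67 to -2.23 from WT, respectively. Over the 9 libraries their log2 shares correlated with that of Ighv1-26 at r = 0.88 to 0.99, and those of the other 8 at -0.19 to 0.80. Ighv1-18 was at 1126, 315.5 and 271.9 FPKM in WT, at 306.2, 22.1 and 276.9 in Tyr-NrasQ61K, where it overlapped WT, and at 111.4, 44.0 and 73.0 in MHCII-KO libraries. Ighv1-34 was at 634.0, 179.4 and 213.0 FPKM in WT, at 169.5, 18.8 and 161.3 in Tyr-NrasQ61K, and at 57.3, 55.1 and 27.9 in MHCII-KO libraries. Ighv1-39, the least similar of the sequences above, had a mean share of 0.427% in WT, 0.529% in Tyr-NrasQ61K and 0.468% in MHCII-KO. Together Ighv1-26 and the 13 similar segments held 29.4%, 52.0% and 31.5% of the usage in WT, 11.2%, 7.29% and 16.7% in Tyr-NrasQ61K, and 4.46%, 5.64% and 4.07% in MHCII-KO libraries. These sums are not independent of the values of Ighv1-26, and reads shared between close copies may be counted in several of them. In shares, Ighv1-26, Ighv1-19 and Ighv1-22 were the 3 segments that ran from WT through Tyr-NrasQ61K to MHCII-KO without overlap.

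**Figure D3:**
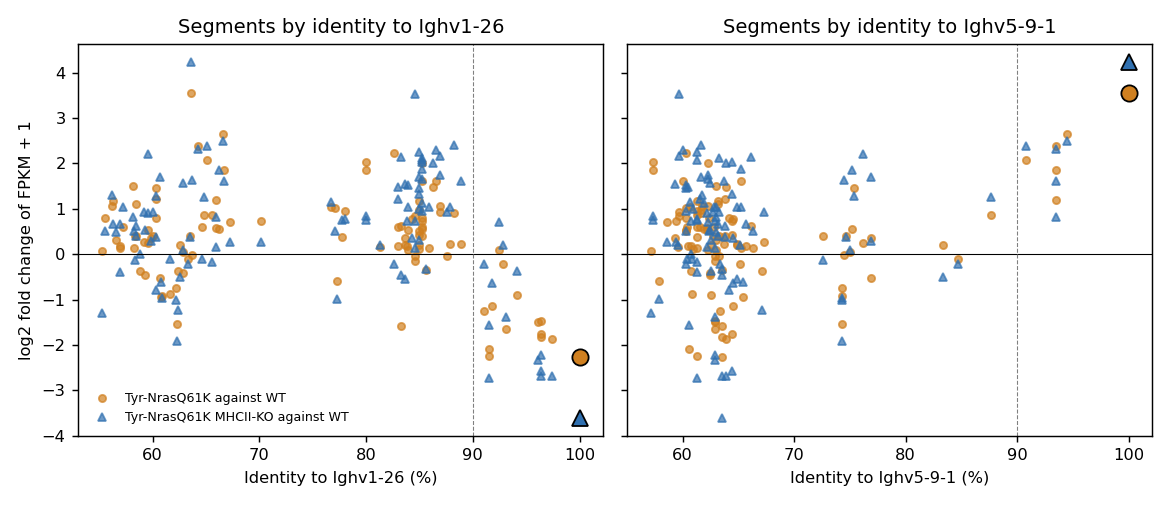
Difference in log2(FPKM + 1) from WT of each of the 108 tested segments against the identity of its V exon to Ighv1-26 (left) or Ighv5-9-1 (right), for Tyr-NrasQ61K (circles) and MHCII-KO (triangles); the large outlined symbols are the 2 reference segments and the dashed line marks 90% identity. Segments at least 95% identical to Ighv1-26 lie between -2.67 and -1.48, and all 5 segments at least 90% identical to Ighv5-9-1 lie above 0.

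The Ighv5 family, one of those nearest the D segments, moved the other way in part of the transgenic libraries. Its share was 1.29%, 1.23% and 1.24% in WT, 22.5%, 3.56% and 5.16% in Tyr-NrasQ61K, and 17.9%, 6.44% and 1.56% in MHCII-KO libraries. All transgenic libraries lay above WT, but the spread among them was wide. Ighv5-9-1 accounted for most of the highest values, at 2718 FPKM in Tyr-NrasQ61K replicate 1, 2274 in MHCII-KO replicate 1 and 364.4 in MHCII-KO replicate 2. It was at 19.5 and 218.7 FPKM in the other Tyr-NrasQ61K libraries, at 60.3 in MHCII-KO replicate 3, and at 50.3, 9.14 and 13.6 in WT libraries. The log2 difference from WT was 3.55 ± 1.83 (SE; limma adjusted p = 0.353) in Tyr-NrasQ61K and 4.24 ± 1.83 (adjusted p = 0.329) in MHCII-KO. The 5 segments at least 90% identical to it, Ighv5-4, Ighv5-6, Ighv5-9, Ighv5-12 and Ighv5-17, were all higher than WT in both comparisons, with medians of 2.08 and 2.31, and none passed the test. Ighv5-6 was at 34.2, 9.18 and 10.7 FPKM in WT, at 931.8, 9.84 and 100.6 in Tyr-NrasQ61K, and at 206.5, 54.8 and 63.5 in MHCII-KO libraries. Tyr-NrasQ61K replicate 1 and MHCII-KO replicate 1 also had the highest Ighj4 shares, though the former lay nearer to WT replicate 3 (40.8%) than to the latter. Among the 4 J segments, Ighj4 made up 44.9% and 74.2% of the summed FPKM there and 5.37% to 40.8% in the other libraries, although these features are very short and their FPKM are uncertain.

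MHCII-KO replicate 3 was led by a pair of segments that were lower in every other library. Ighv1-59 was at 6134 FPKM in this library and at 8.48 to 50.9 in the other 8, a share of 20.1% against 0.0716% to 0.395%. Ighv1-77 was at 5745 FPKM and at 13.8 to 271.3 in the others, a share of 18.8% against 0.248% to 1.25%. Every MHCII-KO library exceeded every WT library for Ighv1-59, whose log2 difference was 3.52 ± 1.79 (SE; limma adjusted p = 0.345) and 1.05 without MHCII-KO replicate 3. Segments at least 90% identical to Ighv1-59 numbered 9, among them Ighv1-72, the segment long studied in the response to the hapten NP. All 9 were higher in MHCII-KO than in WT (median 1.55), and none passed the test. Ighg3, the constant gene of IgG3, was at 4149 FPKM in the same library and at 31.7 to 329.8 in the other 8. It made up 36.9% of the summed FPKM of Ighm, Ighg1, Ighg2b, Ighg2c and Ighg3 there, 23.9% in Tyr-NrasQ61K replicate 2 and 1.10% to 5.63% in the remaining libraries. The constant genes Ighd and Igha were not among the entries used, so this sum lacks them.

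No Ighv segment passed the test in Tyr-NrasQ61K against WT, where the smallest adjusted p (limma) was 0.317 and 0.235% of all genes tested were called. The unadjusted p was under 0.05 for 2 higher and 3 lower segments of 108 (1.85% and 2.78%), against 6.79% higher and 8.43% lower among all genes. With limma's library weights, 13 higher segments and 1 lower one of the 108 were called, beside 6.07% (higher) and 24.5% (lower) of all genes. Of the 108 segments tested, 2 were higher in every Tyr-NrasQ61K library than in every WT library (1.85%, against 8.18% of all genes) and 5 were lower (4.63%, against 10.5%). Both shares are below the background. The higher segments were Ighv8-13, at 7.54, 3.40 and 5.90 FPKM in WT and 12.1, 16.1 and 12.5 in Tyr-NrasQ61K, and Ighv8-8, at 34.3, 21.1 and 33.3 FPKM in WT and 48.9, 118.9 and 40.3 in Tyr-NrasQ61K. Their log2 differences were 1.18 ± 0.47 (SE) and 1.07 ± 0.60. The lower ones were Ighv1-26, Ighv1-34, Ighv1-37, Ighv11-1 and Ighv11-2. Ighv1-37 was at 176.7, 48.8 and 88.1 FPKM in WT and at 39.3, 4.52 and 45.2 in Tyr-NrasQ61K libraries. These counts depended on Tyr-NrasQ61K replicate 2, without which 35 segments were higher and 5 lower, and on the WT libraries. Without WT replicate 1 there were 16 higher and 5 lower, without replicate 2 there were 3 and 9, and without replicate 3 there were 3 and 8. Groups of fewer libraries overlap less by construction, and no share of all genes is given for these settings. After median-ratio scaling of the libraries, 8 were higher and 3 lower.

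In MHCII-KO against WT, again no segment passed the test (smallest adjusted p by limma 0.251, with 0.145% of all genes called). The unadjusted p was under 0.05 for 10 higher and 7 lower segments of 108 (9.26% and 6.48%), where all genes gave 3.57% and 11.5%. With library weights, limma called 21 higher and 8 lower segments of the 108, beside 9.94% (higher) and 34.7% (lower) of all genes. The groups did not overlap for 16 higher segments (14.8%, against 7.97% of all genes) and 8 lower ones (7.41%, against 23.4%). Higher segments were thus more frequent and lower ones less frequent than among all genes. The lower ones were Ighv1-18, Ighv1-19, Ighv1-20, Ighv1-22, Ighv1-26, Ighv1-33, Ighv1-34 and Ighv11-1, of which all but the last are Ighv1-26 or at least 90% identical to it. Ighv1-20 was at 46.9, 18.8 and 186.1 FPKM in WT and 8.49, 6.82 and 7.39 in MHCII-KO libraries. Ighv11-1 was at 131.5, 88.0 and 104.7 FPKM in WT, at 58.3, 12.9 and 60.5 in Tyr-NrasQ61K, and at 20.3, 17.1 and 60.5 in MHCII-KO libraries. Its log2 difference from WT was -1.54 ± 0.66 (SE) and -1.90 ± 0.66, respectively. Ighv11-2, its near-identical partner, was at 250.3, 205.1 and 230.0 FPKM in WT, 188.4, 71.2 and 128.0 in Tyr-NrasQ61K, and 69.5, 87.0 and 263.2 in MHCII-KO libraries, so that MHCII-KO replicate 3 lay above WT. The 16 higher segments came from 6 families, led by Ighv5-9-1, Ighv1-59 and Ighv5-6. Without WT replicate 1, 44 segments were higher and 8 lower, and without MHCII-KO replicate 3, 22 were higher and 16 lower. As above, fewer libraries overlap less by construction, and these counts have no share of all genes beside them.

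MHCII-KO and Tyr-NrasQ61K libraries, the comparison in which the strain label and the transgene are shared, differed less. No segment passed the test (smallest adjusted p by limma 0.99994, with 0.0482% of all genes called). The unadjusted p was under 0.05 for 4 higher segments of 108 (3.7%) and 0 lower ones, and for 0.235% (higher) and 1.28% (lower) of all genes. The groups did not overlap for 5 higher segments (4.63%, against 0.729% of all genes) and for 0 lower ones (3.07% of all genes). The 5 were Ighv10-3, Ighv3-8, Ighv3-6, Ighv1-14 and Ighv12-3. Ighv10-3 was at 10.3, 3.48 and 19.8 FPKM in Tyr-NrasQ61K and 21.9, 52.0 and 86.9 in MHCII-KO libraries, a log2 difference of 2.22 ± 0.86 (SE). Ighv3-8 was at 17.2, 2.89 and 11.3 FPKM against 43.4, 38.1 and 30.4, a log2 difference of 1.99 ± 0.57, and was also below the MHCII-KO libraries in WT, at 8.01, 21.5 and 9.35. Ighv3-6 was at 71.6, 40.0 and 80.7 FPKM against 111.4, 110.8 and 146.2, but at 120.6, 21.4 and 227.6 in WT. Leaving out Tyr-NrasQ61K replicate 2 gave 5 higher and 19 lower, and leaving out Tyr-NrasQ61K replicate 3 gave 9 and 1. Without MHCII-KO replicate 1 there were 7 and 3, and without MHCII-KO replicate 3 there were 7 and 1. Here too, fewer libraries overlap less by construction, and no share of all genes is given. In shares instead of FPKM, 1 segment was higher and 11 were lower (11.1% together, against 6.06% of the Igkv segments). The direction of this small set thus depended on the scale.

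Usage was also summed along the locus. The 113 segments were divided by order into a proximal part of 37 segments nearest the D segments, a middle part of 38 and a distal part of 38, and Ighv1-62-1 was left out. The middle part, which holds Ighv1-26 and all 13 segments similar to it, took 70.2%, 72.9% and 58.6% of the usage in WT, 33.5%, 28.9% and 32.4% in Tyr-NrasQ61K, and 25.1%, 22.7% and 14.6% in MHCII-KO libraries. No group overlapped another, but this is not separate from the shares of Ighv1-26 and its similar segments. Whether the middle part differed without them was not tested. The distal part took 18.9%, 10.9% and 21.2% in WT, 21.8%, 43.2% and 44.8% in Tyr-NrasQ61K, and 29.1%, 51.6% and 77.2% in MHCII-KO libraries, and every transgenic library lay above WT. The shares of the parts sum to the whole, so a lower middle share raises the others. The distal part also holds Ighv1-59 and Ighv1-77, the leading segments of MHCII-KO replicate 3. The proximal part, with the Ighv5 family, was highest in Tyr-NrasQ61K replicate 1 (44.7%) and MHCII-KO replicate 1 (45.8%) and lowest in MHCII-KO replicate 3 (8.14%).

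**Figure D4:**
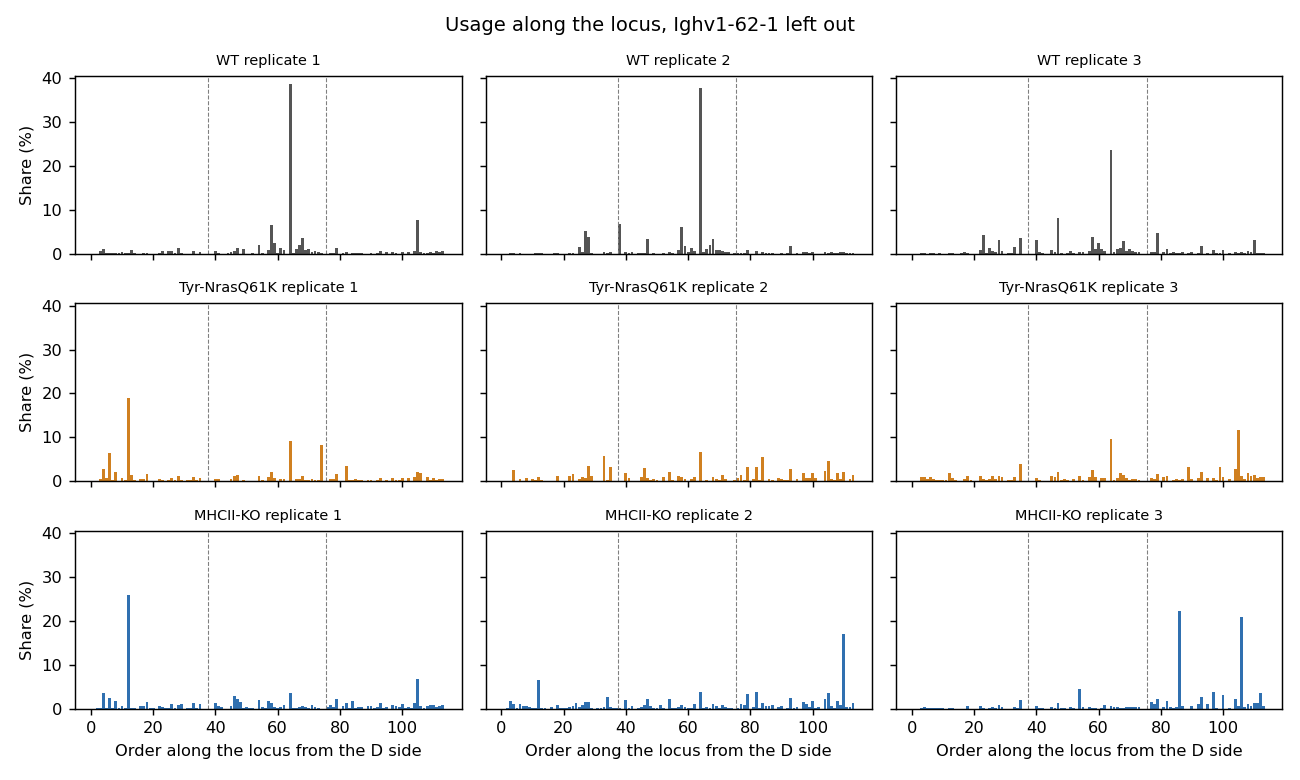
Share of the summed Ighv FPKM without Ighv1-62-1 (%) of each segment, ordered along the locus from the D side, in each library; dashed lines separate the proximal, middle and distal parts. The tallest bar of each WT library is Ighv1-26 in the middle part (23.7% to 38.6%), and in MHCII-KO libraries the tallest bars are proximal in replicate 1 and distal in replicates 2 and 3.

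The similarity of usage between libraries was measured as the overlap, the sum over segments of the smaller of both shares. Over the 36 pairs it ranged from 27.2% to 77.5%, and Spearman's rho between the shares of a pair ranged from 0.60 to 0.84 across segments, which are not independent replicates. Pairs within a group overlapped by 57.2% ± 13.1 on average (SD over 9 pairs). Pairs of WT with Tyr-NrasQ61K libraries overlapped by 54.2% ± 10.6, pairs of WT with MHCII-KO by 44.7% ± 15.5, and pairs of Tyr-NrasQ61K with MHCII-KO by 58.9% ± 16.2, so the mean within groups lay inside the range of the means between groups. The pairs share libraries and are not independent. The most alike pair was Tyr-NrasQ61K replicate 2 and MHCII-KO replicate 2, the pair that stood apart in the whole RNA, although Ighv1-62-1 alone contributed 41.3% to their overlap. MHCII-KO replicate 3 was the least like the others, at 27.2% to 45.8%.

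Without Ighv1-62-1 the WT libraries stood together. Their overlaps were 61.9% to 78.7%, above all 18 pairs of a WT library with another group, of which the highest was 57.7%. Ighv1-26 alone contributed 23.7% to 37.8% to each of these WT overlaps, and the overlap without it was not determined. The means were 69.1% ± 8.67 within WT, 59.4% ± 7.11 within Tyr-NrasQ61K and 46.0% ± 12.1 within MHCII-KO (SD over 3 pairs each). Between groups they were 47.5% ± 7.17 for WT and Tyr-NrasQ61K, 35.8% ± 7.05 for WT and MHCII-KO, and 53.9% ± 11.9 for Tyr-NrasQ61K and MHCII-KO (SD over 9 pairs each). Tyr-NrasQ61K and MHCII-KO libraries did not separate from each other. The library most like Tyr-NrasQ61K replicate 1 was MHCII-KO replicate 1 (69.6%), and that most like MHCII-KO replicate 2 was Tyr-NrasQ61K replicate 2 (63.6%). For the kappa light chain segments the means were 69.8% ± 4.29 within WT, 54.7% ± 8.82 within Tyr-NrasQ61K and 44.6% ± 9.56 within MHCII-KO. Between groups they were 52.9% ± 10.3 for WT and Tyr-NrasQ61K, 46.9% ± 8.57 for WT and MHCII-KO, and 52.2% ± 7.33 for both transgenic groups. The most used kappa segment of WT, Igkv10-96, held 46.3%, 41.2% and 25.4% of the Igkv FPKM in WT, 22.2%, 4.62% and 15.9% in Tyr-NrasQ61K, and 9.42%, 5.31% and 28.6% in MHCII-KO libraries. For the Trbv segments of the T cell receptor the means were 85.4% ± 2.98 within WT and 81.5% ± 6.16 and 82.5% ± 5.14 between WT and the other groups.

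**Figure D5:**
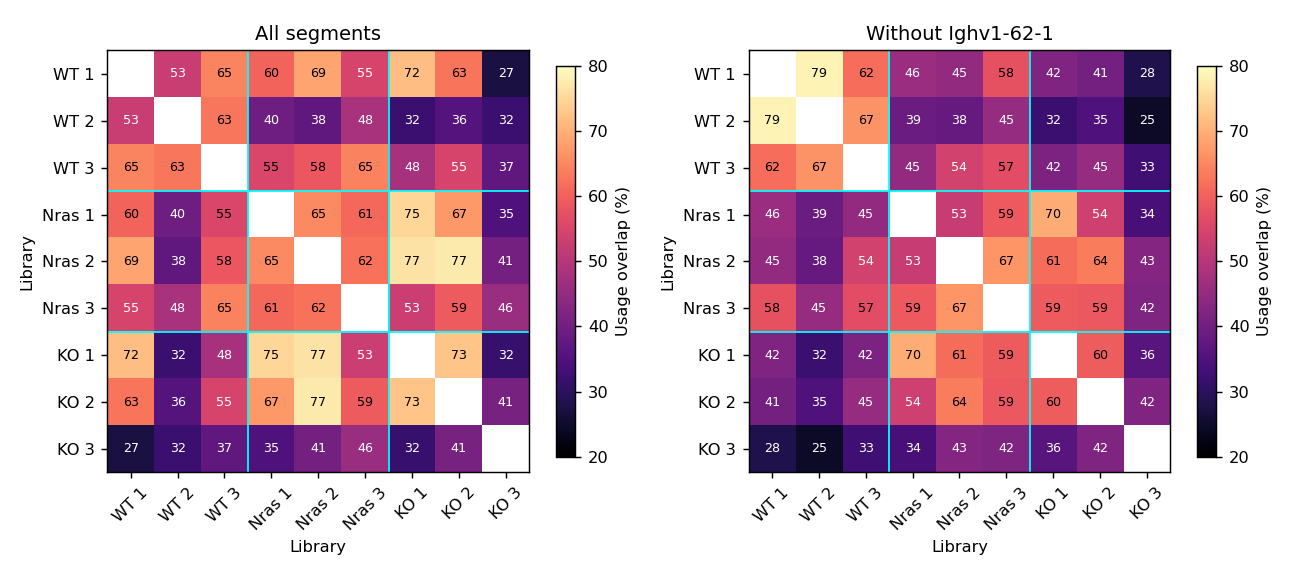
Usage overlap (%, the sum over segments of the smaller share) between each pair of the 9 libraries, with all 113 segments (left) and without Ighv1-62-1 (right); lines separate the groups, and Nras and KO stand for Tyr-NrasQ61K and MHCII-KO. Without Ighv1-62-1 the WT block (61.9% to 78.7%) lies above every pair of WT with another group, and MHCII-KO replicate 3 stays at 45.8% or less with all others in both panels.

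Taken by shares rather than FPKM, the groups did not overlap for 24 of 108 segments (22.2%) in Tyr-NrasQ61K against WT (17 higher, 7 lower). In MHCII-KO against WT there were 20 such segments (18.5%), 8 higher and 12 lower. For the 99 Igkv segments that passed the same filter the counts were 19 (14 higher, 5 lower) and 19 (16 higher, 3 lower), or 19.2% each. Shares were not taken for all genes. In FPKM, 8.18% (higher) and 10.5% (lower) of all genes did not overlap in the first comparison. In the second these were 7.97% and 23.4%. The counts do not by themselves set the segments apart from other genes. The 7 lower Ighv segments of the first comparison were Ighv1-26 and 6 of the segments similar to it. All 12 lower segments of the second were Ighv1-26, 9 of its similar segments, Ighv11-1 and the pseudogene Ighv2-1. The higher segments of the first comparison included Ighv5-4, Ighv5-6, Ighv5-9, Ighv5-9-1, Ighv5-12 and Ighv5-17. A share falls when others rise, so these counts are not independent of one another.

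Similar sequences and similar measured usage went together across the whole set. For each pair of the 108 tested segments, the log2 shares were correlated over the 9 libraries. The median r was 0.83 for the 63 pairs that are at least 95% identical in the V exon and 0.63 for the 204 pairs between 90% and 95%. It was 0.10 for the 1345 pairs between 80% and 90% and 0.11 for the 4166 pairs below 80%. These pairs share libraries and segments. How far reads shared between close copies contribute to these correlations was not tested. Neighbours on the chromosome are often similar as well. Among pairs under 90% identical, the median r was 0.15 for segments 1 to 3 places apart, 0.17 for 4 to 10 places and 0.097 for more distant ones. Ighv1-62-1 was an exception, as its r with the 5 segments at least 90% identical to it was -0.66 to -0.04. The similar segments of Ighv1-59 correlated with it at 0.47 to 0.92.

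Other genes of heavy chain assembly and expression gave no calls. Of the lists drawn up for this locus, 0 genes passed the test in any comparison among the heavy chain constant genes (6 tested), J segments (3), recombination genes (10), hypermutation and class switching genes (5), germinal center genes (5), B cell genes (13 entries), plasma cell genes (9) and regulators of V gene transcription (3). At an unadjusted p under 0.05 by limma, these lists held 4 higher and 2 lower entries in Tyr-NrasQ61K against WT, 2 higher and 4 lower in MHCII-KO against WT, and 1 higher and 0 lower in MHCII-KO against Tyr-NrasQ61K. The shares of all genes at this p, given above for the segments, are their background too. The last was Ighg1, the constant gene of IgG1, at 4.91, 48.7 and 106.5 FPKM in Tyr-NrasQ61K and 288.1, 169.4 and 415.2 in MHCII-KO libraries, a log2 difference of 3.11 ± 1.24 (SE). Pou2f2, which encodes the octamer-binding factor Oct-2 that acts on V promoters, was at 4.39, 6.03 and 3.30 FPKM in WT, 6.99, 16.3 and 9.15 in Tyr-NrasQ61K, and 6.91, 8.93 and 9.26 in MHCII-KO libraries. Its log2 differences from WT were 1.04 ± 0.31 and 0.77 ± 0.31 (SE; limma adjusted p = 0.253 and 0.329). Ms4a1 ran the other way, with a lowest WT value of 97.2 FPKM and highest values of 92.3 in Tyr-NrasQ61K and 77.3 in MHCII-KO libraries. The 20 D segments were listed at 0 in every library.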

How the data were processed

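RNA-seq of 9 libraries was analysed from the table of FPKM deposited by the authors, which per the labels came from TopHat, Cufflinks and Cuffdiff with mm10. For versions, annotation and filters, the sources used here give nothing. Read numbers cannot be had from FPKM. Relative depth, from the most frequent ratio of low values, was 0.754 to 1.69 of WT replicate 1, and unclear for Tyr-NrasQ61K replicate 3. Of 37819 entries, 18 with several values per library were left out, as were 27 unnamed columns that belong to no sample. Tables of the authors' own comparisons, which hold fold changes and p-values, were not used.

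Genes at 1 FPKM or more in at least 3 libraries, 16587 in all and 108 of the 113 Ighv segments, entered the test. A linear model of log2(FPKM + 1) was fitted with limma 3.58.1 (R 4.3.3), using a mean per group, a variance trend and Benjamini-Hochberg adjustment over all genes. A pipeline test on simulated data was run first. Usage (shares, effective number, overlap) was computed in Python 3.11.15 and V exon identity with Biopython 1.88, from GENCODE M21 transcripts. Sums, shares and overlaps carry no p-value. The members and gene lists were chosen with earlier results of these data known. Named segments were the 10 with the highest mean share, the leading segment of each library, the leading segment of each family holding at least 1% of usage, called segments, and in each comparison up to 3 higher and 3 lower segments with the largest difference and no overlap. Alternatives covered the pseudocount (0.1), the filter, scaling, quantile normalization, library weights, a replicate block, pseudogenes, the leading segment and each library in turn.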

Additional observations from a re-analysis of the deposited data

How the results depend on the processing

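No Ighv segment was called in any comparison with a pseudocount of 0.1, without the filter, with median-ratio scaling or quantile normalization, or with any library left out (0 in each case), nor without Tyr-NrasQ61K replicate 2 and MHCII-KO replicate 2 together. With limma's library weights, which ranged from 0.197 for Tyr-NrasQ61K replicate 2 to 5.22 for MHCII-KO replicate 3, 14 segments were called in Tyr-NrasQ61K against WT (13 higher, 1 lower), 29 in MHCII-KO against WT (21 higher, 8 lower) and 0 between the transgenic groups. With each library scaled to the same summed Ighv FPKM, chosen after seeing the data, 1 was called in MHCII-KO against WT, Ighv1-26. The cause of these changes was not tested. The 14 fold changes followed for named segments kept their sign in all 238 settings applied to them and passed the threshold in 6.

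With the replicate number as a block, 1 segment was called in Tyr-NrasQ61K against WT (Ighv5-4, higher), 1 in MHCII-KO against WT (Ighv1-26, lower) and 0 in MHCII-KO against Tyr-NrasQ61K. The main fit did not take the numbers to pair the libraries. The deviations of 3 of 9 same-numbered pairs correlated above 0.1. The correlations of these 9 pairs ranged from -0.038 to 0.33 and were above 0 in 8, and 4 libraries correlated best with their own number in both other groups. Differently numbered pairs ranged lower, from -0.27 to 0.16. Whether the numbers pair the libraries is therefore not settled by these values.

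Without the most used segment of each library, the mean effective number was 29.3 in WT, 49.4 in Tyr-NrasQ61K and 37.2 in MHCII-KO, and the mean share of the 10 leading segments was 63.6%, 47.5% and 54.7%. Without Ighv1-62-1, chosen after seeing the data, the effective number was 49.4 in Tyr-NrasQ61K and 35.6 in MHCII-KO, and the share 66.9%, 47.5% and 56.1% in the 3 groups. Leaving out pseudogenes or values under 1 FPKM moved no usage measure by more than the spread of its group.

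Counts of segments whose groups did not overlap, 7 in Tyr-NrasQ61K against WT, became 11 with median-ratio scaling, 24 in shares and 10 to 40 with a library left out. In MHCII-KO against WT, 24 became 26 to 52 with a library left out, and in MHCII-KO against Tyr-NrasQ61K, 5 became 12 in shares and 7 to 24 with a library left out. These alternatives were chosen after seeing the data, and groups of fewer libraries overlap less by construction. With 3 libraries a group and FPKM in place of read counts, the counting error of single segments is unknown.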
